A study of Mus musculus with 6 samples.

Results

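The 39 imprinted genes described here were measured in islet cells of newborn mice, sorted by a reporter of past *Wnt4* expression. They were chosen by name as mouse genes known to be imprinted, with earlier results of these data known. All 39 were found among the 45616 features of the arrays (22908 with a gene symbol), through 70 probes whose RefSeq transcript belongs to a member. Islets were taken at postnatal day 1 from *Wnt4eGFPCre;mTmG* pups. The targeted *Wnt4* allele drives eGFP and Cre, and Cre switches the mTmG reporter from membrane tomato to membrane GFP (mGFP), so mGFP marks cells that have transcribed *Wnt4* and not the level at the moment of sorting. Dissociated islet cells were sorted into mGFP+ (Wnt4hi) and mGFP- (Wnt4low) cells, with 3 arrays per population and islets of 3 or 4 pups pooled for each. Both populations thus come from mice of the same cross, bred to C57BL/6J. From each pool, amplified cDNA carrying the dye Cy5 was put on its own single-colour Agilent array, all on 1 slide. The replicate numbers were 2, 3 and 4 for Wnt4hi and 1, 3 and 4 for Wnt4low.

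In an imprinted gene, transcripts come mainly from the copy inherited from the mother or mainly from the copy inherited from the father. Such genes lie in domains, in which DNA methylation that was laid down in the egg or the sperm at an imprinting control region sets the expression of several neighbours, often through a long non-coding RNA. Many of them act on fetal and early postnatal growth, and several are known in the islet: *PLAGL1* is the gene behind transient neonatal diabetes, and the *DLK1-MEG3* domain has been studied in human islets with type 2 diabetes. The 39 genes fall into 18 domains on 11 chromosomes, 11 of the domains with 1 member. By known parental origin 22 are paternally expressed, 11 maternally expressed, and in 6 the allele depends on tissue or transcript (*Grb10*, *Ube3a*, *Gnas*, *Blcap*, *Copg2* and *Trappc9*). A probe measures the RNA of both alleles together, so the allele in use was not measured.

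Several of these genes are also hosts of microRNAs. Mature sequences from RefSeq (GRCm38.p6) are shown for the hosts whose probes differed between the populations in the results below, with the seed (bases 2 to 8) in capitals; the microRNAs themselves were not measured by these probes. Among the hosts shown, the maternal transcripts *Meg3*, *Rian* and *Mirg* hold 1, 3 and 10 of the 58 hairpin entries that lie between *Dlk1* and *Dio3*, and the maternal *H19* and the paternal *Mest* hold 1 each. *Meg3* also holds the mature miR-1906, which lies apart from miR-770, so its 1 hairpin entry does not cover all its mature sequences. *Mirg* holds miR-453 and miR-496a-5p, which share a seed.
*H19*, miR-675-5p: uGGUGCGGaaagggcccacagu
*Mest*, miR-335-5p: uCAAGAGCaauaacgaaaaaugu
*Meg3*, miR-770-5p: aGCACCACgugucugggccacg
*Rian*, miR-370-3p: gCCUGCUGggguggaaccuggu
*Mirg*, miR-410-3p: aAUAUAACacagauggccugu
*Mirg*, miR-453: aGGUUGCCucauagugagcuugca
*Mirg*, miR-496a-5p: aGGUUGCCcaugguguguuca

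The start regions of 33 members were found in the RefSeq promoter table (GRCm38.p6), as 49 windows of 300 bases around a transcript start, most of each upstream of it. The windows of the members held a median of 13 CpG sites against 7 over all 32851 windows of the table. The hexamer TGCCGC, the core of the motif of ZFP57 (the zinc finger protein that keeps methylation at imprinting control regions), was searched on both strands and found in 12 of the 49 windows (24.5%) against 11.6% of all windows. GGGGCCCC, a core of the motif of PLAGL1, reads the same on both strands and was found in 4 of 49 (8.16%) against 1.08% of all windows. A pair of these 4 windows is the same stretch, because *Peg3* and *Usp29* start 164 bases apart on opposite strands and their windows share 263 bases. Likewise 2 of the 12 windows with TGCCGC are *Mest* windows that start 3 bases apart and share 297 bases, so that the 12 lie in 11 separate stretches. Neither motif can overlap the other in these letters, and a match is only a match of letters. The windows of 3 genes that the results turn on are printed: *Peg3*, whose window is shared with *Usp29* and holds GGGGCCCC; *Meg3*, one of 3 maternal transcripts that passed the unadjusted threshold as higher in Wnt4hi, with 1 match of TGCCGC; and *Mest*, the member with the largest difference in the design used here, with 2 matches. Capitals mark the motif, and TGCCGC read on the other strand appears as GCGGCA.
*Peg3*, chr7:6730370-6730669, minus strand: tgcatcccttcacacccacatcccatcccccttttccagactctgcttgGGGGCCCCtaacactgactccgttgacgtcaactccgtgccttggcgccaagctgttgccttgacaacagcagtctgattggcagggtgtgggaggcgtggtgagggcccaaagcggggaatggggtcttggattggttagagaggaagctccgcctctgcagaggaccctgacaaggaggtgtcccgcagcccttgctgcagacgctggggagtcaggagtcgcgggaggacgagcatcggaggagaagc
*Meg3*, chr12:109540746-109541045, plus strand: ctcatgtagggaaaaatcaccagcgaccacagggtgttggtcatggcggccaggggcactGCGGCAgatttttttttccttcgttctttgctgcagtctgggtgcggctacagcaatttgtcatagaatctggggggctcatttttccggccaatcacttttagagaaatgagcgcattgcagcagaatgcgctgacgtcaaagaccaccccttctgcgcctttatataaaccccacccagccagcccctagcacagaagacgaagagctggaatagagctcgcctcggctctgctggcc
*Mest*, chr6:30737800-30738099, plus strand: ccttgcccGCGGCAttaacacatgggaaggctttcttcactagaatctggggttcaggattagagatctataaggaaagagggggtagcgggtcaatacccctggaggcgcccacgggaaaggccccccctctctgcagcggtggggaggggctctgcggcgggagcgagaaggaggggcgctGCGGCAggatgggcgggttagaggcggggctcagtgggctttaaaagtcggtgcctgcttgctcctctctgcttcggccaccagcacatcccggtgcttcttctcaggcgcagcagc

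Between 70.5% and 79.5% of the spots of Wnt4hi arrays and between 73.1% and 76.9% of those of Wnt4low arrays were well above background by the test of the scanner software, and 0 spots were saturated. *Wnt4*, the gene whose reporter was sorted, was higher in Wnt4hi cells by 1.08 on the log2 scale and passed the unadjusted threshold of 0.05 of limma. The labelled cell types were compared with their markers. Of 10 β-cell markers 9 and of 6 α-cell markers 6 were higher in Wnt4hi (median log2 differences 1.16 and 1.72), and 6 and 2 of them passed the unadjusted threshold. All 10 endothelial markers were lower and passed, with a median difference of -3.63. Of them *Tek* and *Tie1* were well above background on 0 Wnt4hi arrays and 3 Wnt4low arrays. The others were well above background on all 3 Wnt4hi arrays, or on 2 for *Emcn* and *Flt1*, so endothelial RNA was detected in both populations. The 10 markers of mesenchyme and pericytes had negative differences with a median of -1.18, and 6 of them passed. The 10 β-cell markers were well above background on all 6 arrays, so RNA of endocrine cells was present in both populations. A pair of arrays stood nearer the other population than their replicates: the mean of the mesenchyme and pericyte markers was 12.05 in Wnt4hi replicate 2, against 10.75 and 11.14 in the other Wnt4hi arrays and 12.39 to 12.64 in Wnt4low arrays, and the mean of the β-cell markers was 13.39 in Wnt4low replicate 3, against 12.03 and 12.65 in the other Wnt4low arrays and 13.72 to 13.93 in Wnt4hi arrays. In the authors' own table of log2 values, the column of Wnt4hi replicate 2 followed the scanner file of that array with a correlation across probes of only 0.27, against 0.84 to 0.87 for the other 5 columns. Its closest file, that of Wnt4hi replicate 3, gave only 0.29. Whether the column or the scanner file of Wnt4hi replicate 2 departs from the sample could not be told. The main values use the scanner file, and results are also given without that array. Results from the authors' table are also given without that column. In cells sorted in bulk, fewer cells of a type and less RNA per cell cannot be told apart.

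The imprinted genes differed in both directions. Of the 39, 24 (61.5%) were higher and 15 lower in Wnt4hi cells, where 63.5% of all features were higher, with a median log2 fold change (Wnt4hi minus Wnt4low, on normalised log2 intensities) of 0.10 against 0.07 over all features. At the unadjusted threshold of 0.05 of limma's empirical Bayes test, the threshold of the study, 9 were higher and 5 lower. That is 23.1% and 12.8% of the members, where 5.02% of all features passed as higher and 5.53% as lower. Members were chosen with earlier results of these data known, so these shares describe the list and are not a test of imprinted genes. Among features well above background on all 6 arrays the background was 6.19% higher and 5.68% lower, and of the 33 members among them 8 passed as higher and 4 as lower. After Benjamini-Hochberg adjustment over all features 0 members passed by limma in the design used here, where 0.0351% of features passed as higher and 0.403% as lower, and 1 or 2 passed in 8 of the 20 other settings: *Peg12*, whose probe was not well above background on any Wnt4hi array, in 6, *Mest* with the authors' values, and *Mest* and *H19* with those values without Wnt4hi replicate 2. The 3 arrays of 1 population lay apart from the 3 of the other in 14 members, 8 higher and 6 lower, where this held for 9.56% and 6.44% of all features. With 3 arrays against 3, the smallest two-sided p of an exact permutation test would be 0.1, and so few arrays limit how precise each value can be. Adjusted p values below are those of limma; a member is said to pass where its unadjusted p is under 0.05.

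**Figure D1:**
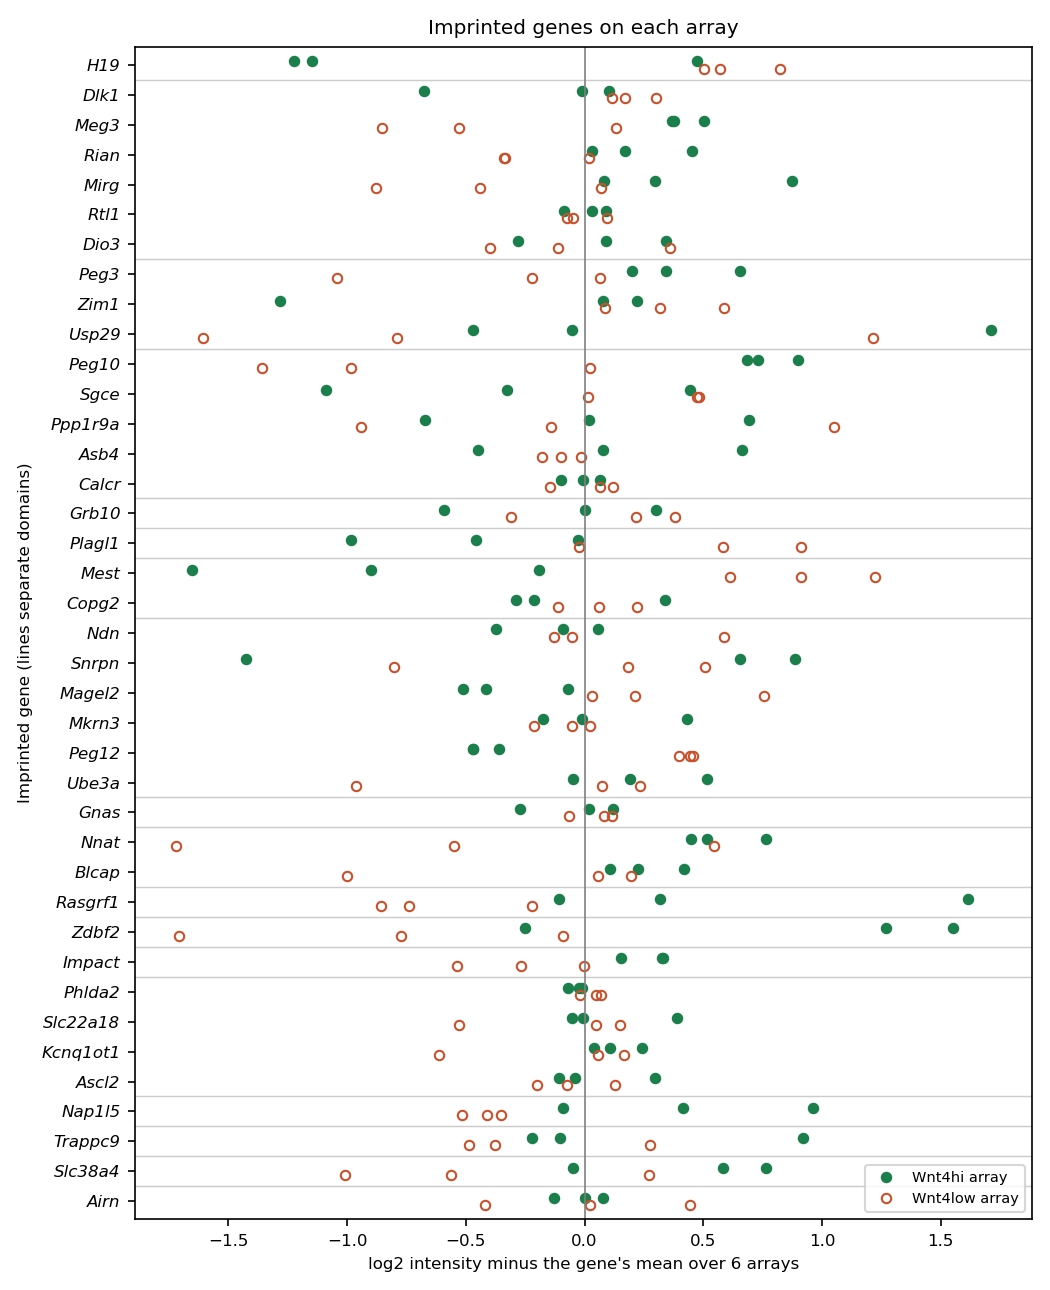
Normalised log2 intensity of each of the 39 imprinted genes on each array, as the difference from the mean of that gene over the 6 arrays; filled points are Wnt4hi arrays, open points Wnt4low arrays, and grey lines separate the domains. In 8 genes all filled points lie to the right of all open points, and in 6 genes to the left.

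Both directions occurred among paternally and among maternally expressed genes. Of the 22 paternally expressed genes 14 were higher and 8 lower in Wnt4hi, and 6 and 4 of them passed the unadjusted threshold. Of the 11 maternally expressed genes 7 were higher and 4 lower, and 3 and 1 passed. Over all features 63.5% were higher, and 5.02% passed as higher and 5.53% as lower. The median differences were 0.13 for paternally and 0.10 for maternally expressed genes, and 0.15 for the 6 genes whose allele depends on tissue or transcript, of which 0 passed. Over the other settings the paternal median ran from 0.041 to 0.26 and the maternal from 0.018 to 0.21. A difference between these classes was not tested, since genes of 1 domain are not independent.

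**Figure D2:**
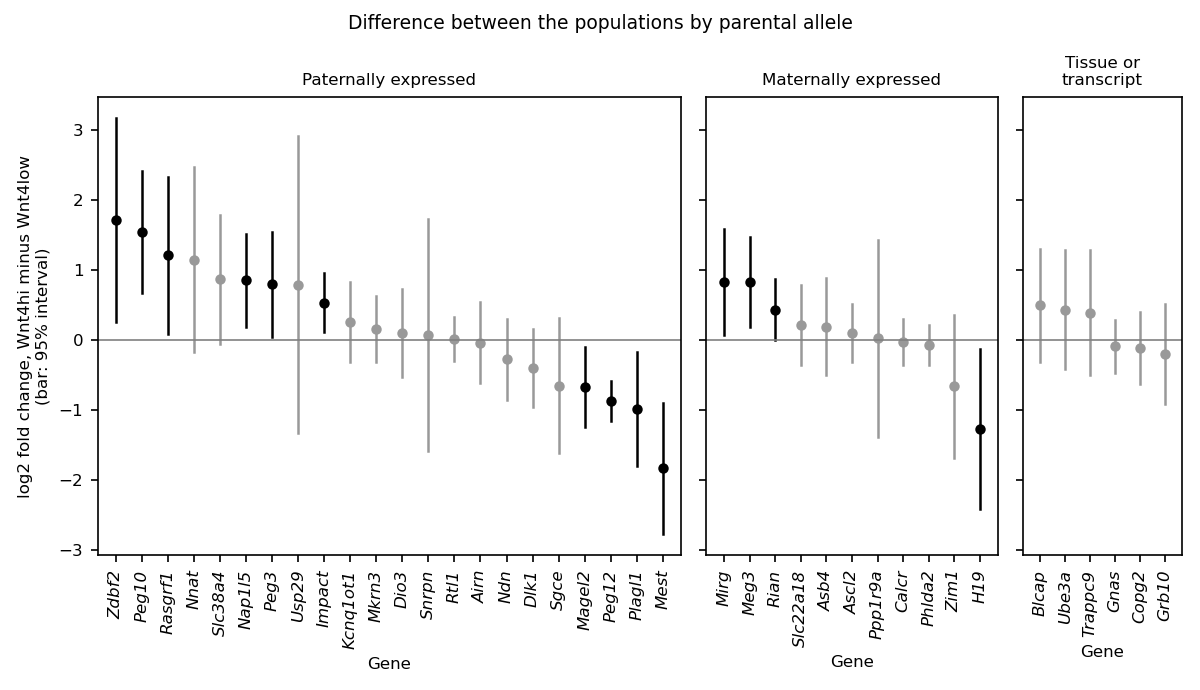
Log2 fold change (Wnt4hi minus Wnt4low) of the 39 imprinted genes by parental allele, with the 95% interval of limma; black marks the genes at an unadjusted p under 0.05. Both signs occur among the black points of paternally (6 higher, 4 lower) and maternally expressed genes (3 higher, 1 lower).

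The *Dlk1-Dio3* domain on chromosome 12 was the only domain with more than 1 member passing in the higher direction. Its maternal strand gives *Meg3*, *Rian* and *Mirg*, long non-coding RNAs of which *Rian* is the host of C/D snoRNAs and *Mirg* of microRNAs, and its paternal copy gives the coding genes *Dlk1*, *Rtl1* and *Dio3*. *Meg3* measured 13.53, 13.66 and 13.54 in Wnt4hi replicates 2, 3 and 4, and 12.63, 13.29 and 12.31 in Wnt4low replicates 1, 3 and 4. The Wnt4hi arrays lay within 0.13 of each other and above every Wnt4low array, of which replicate 3 came nearest. The difference was 0.83 ± 0.26 (SE), a 1.78-fold higher level (adjusted p = 0.324), and the other 3 *Meg3* probes gave 0.54 to 0.90.

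*Mirg* followed with 13.03, 12.24 and 12.45 in Wnt4hi and 11.71, 12.22 and 11.28 in Wnt4low arrays, a difference of 0.84 ± 0.31 (adjusted p = 0.418). Here the populations lay only 0.015 apart, between Wnt4hi replicate 3 and Wnt4low replicate 3. *Rian* measured 12.42, 12.70 and 12.28 in Wnt4hi and 11.91, 12.27 and 11.91 in Wnt4low arrays, a difference of 0.44 ± 0.18 (adjusted p = 0.471) with a gap of 0.015 as well. The 3 maternal RNAs thus had their highest Wnt4low value in the same array, replicate 3, which also had the highest β-cell markers of the Wnt4low arrays; the part of that array's cells in the result was not tested. Without Wnt4low replicate 3 the differences were 1.11 for *Meg3*, 1.08 for *Mirg* and 0.55 for *Rian*. All 3 lost the unadjusted threshold without Wnt4low replicate 1, where the differences were 0.78, 0.82 and 0.38. *Meg3* also lost it without Wnt4hi replicate 3 (0.79), *Mirg* without Wnt4hi replicate 2 or 4 or Wnt4low replicate 4 (0.60 to 0.89), and *Rian* without Wnt4hi replicate 2 or 3 or Wnt4low replicate 4 (0.32 to 0.46). With the authors' values *Mirg* fell to 0.28 and *Meg3* to 0.55, and neither passed (0.41 and 0.49 without the column of Wnt4hi replicate 2); *Rian* was not analysed with these values. *Mirg* did not pass with the processed intensity (0.62) or median centring (0.77) either. *Rian*, whose unadjusted p lay next to the threshold, passed in only 6 of its 18 other settings.

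Of the paternal genes of the same domain 0 passed. *Dlk1*, a transmembrane protein of the Notch ligand type that marks progenitor cells, measured 13.09, 12.98 and 12.31 in Wnt4hi and 13.16, 13.11 and 13.29 in Wnt4low arrays. All Wnt4hi arrays were lower, 2 of them by little, and the difference of -0.39 ± 0.23 did not pass (adjusted p = 0.66); a second probe gave -0.56. *Dlk1* passed in 1 of the other settings, the authors' values without Wnt4hi replicate 2 (-0.62), and its difference was -0.15 without Wnt4hi replicate 4. *Dio3*, the deiodinase that inactivates thyroid hormone, differed by 0.10 (95% interval -0.53 to 0.73), and *Rtl1*, a protein derived from a retrotransposon, by 0.02 (-0.29 to 0.33). The *Rtl1* interval is the narrowest of the domain, and 15 of the hairpins lie on it, most of them on the opposite strand. The sources used here do not state whether the amplified cDNA kept the strand of the RNA, so a transcript and its antisense partner cannot be told apart for *Rtl1*, nor for *Airn*, *Kcnq1ot1*, *Copg2* and *Mest*.

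*Mest* had the largest difference of the members in the design used here and in 13 of the 20 other settings; *Zdbf2* had it in 6, among them that without Wnt4hi replicate 2 (2.27 against -2.19), and *Rasgrf1* in 1. Its protein has the fold of an α/β hydrolase and lies in the endoplasmic reticulum, and the gene is known from embryonic mesoderm. It measured 12.48, 11.02 and 11.77 in Wnt4hi and 13.58, 13.28 and 13.89 in Wnt4low arrays, so every Wnt4low array was above every Wnt4hi array. The level was 3.55-fold lower in Wnt4hi, a difference of -1.83 ± 0.39 (adjusted p = 0.146). A second probe gave -2.11, and *Mest* passed the unadjusted threshold in each of the 20 other settings. The highest Wnt4hi value was that of replicate 2, the array with the highest mesenchyme markers of its population, and without it the difference was -2.19. *Copg2*, a coatomer subunit encoded beside *Mest* on the opposite strand, differed by -0.11 (95% interval -0.62 to 0.40).

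*H19*, the maternal non-coding RNA next to *Igf2*, was lower in Wnt4hi as well. It measured 14.20, 12.58 and 12.51 in Wnt4hi and 14.30, 14.56 and 14.23 in Wnt4low arrays. The value of Wnt4hi replicate 2 lay 0.03 below the lowest Wnt4low array and 1.62 above the next Wnt4hi array. The difference was -1.27 ± 0.47 (adjusted p = 0.411), 2.41-fold lower. Without Wnt4hi replicate 2 it was -1.82 and passed, whereas without any 1 of the other 5 arrays *H19* lost the threshold (-1.33 to -0.97). *Igf2*, the paternally expressed growth factor that shares the enhancers of *H19*, measured 13.14, 11.61 and 11.58 in Wnt4hi and 13.08, 13.35 and 14.34 in Wnt4low arrays, a difference of -1.48 ± 0.53 (adjusted p = 0.392). In both neighbours Wnt4hi replicate 2 lay with the Wnt4low arrays.

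*Plagl1*, the zinc finger transcription factor of the neonatal diabetes locus, was lower in Wnt4hi with the probe that stands for it. Its values were 14.72, 13.76 and 14.29 in Wnt4hi and 14.72, 15.33 and 15.66 in Wnt4low arrays. Wnt4hi replicate 2 and Wnt4low replicate 1 were 0.003 apart, and the other arrays lay to either side. The difference was -0.98 ± 0.33 (adjusted p = 0.364), but the second probe of the same transcript gave 0.07 ± 0.18, so the probes disagree and the mean of both did not pass (-0.46). The call was also lost without Wnt4hi replicate 3 or 4 or Wnt4low replicate 3 or 4 (-0.99 to -0.73), and with the authors' values the difference was -0.65 and passed (-0.75 without the column of Wnt4hi replicate 2).

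In the *Peg10-Sgce* domain on chromosome 6 only *Peg10* passed. *Peg10* and *Sgce* lie head to head under a shared paternal control region; *Peg10* codes for a protein derived from a retrotransposon that is needed in the placenta, and *Sgce* for ε-sarcoglycan. *Peg10* measured 14.07, 13.91 and 13.86 in Wnt4hi and 11.81, 13.20 and 12.19 in Wnt4low arrays. The Wnt4hi arrays were tight and all above the Wnt4low arrays, which spread over 1.38. The difference of 1.55 ± 0.36, 2.92-fold, had the smallest p of the members that were higher in this fit (adjusted p = 0.174). It passed the unadjusted threshold in each of the 20 other settings. The second probe gave 1.25.

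*Sgce* had the opposite sign and did not pass. It measured 9.70, 10.46 and 11.23 in Wnt4hi and 11.26, 10.80 and 11.27 in Wnt4low arrays, a difference of -0.65 ± 0.39 (adjusted p = 0.674), and -0.24 with its second probe. It passed without Wnt4hi replicate 4 (-1.03), was -0.27 without Wnt4hi replicate 2 and had the opposite sign with the authors' values (0.048, and 0.0085 without the column of Wnt4hi replicate 2). Whether *Peg10* and *Sgce* differ from each other in response was not tested. The maternal neighbours gave small differences, 0.03 for *Ppp1r9a* (neurabin) and 0.19 for *Asb4* (an adaptor of ubiquitin ligases), with probes of opposite sign in both. *Calcr*, the calcitonin receptor, was not well above background on any of the 6 arrays.

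In the *Peg3* domain on chromosome 7 the zinc finger gene *Peg3* was higher in Wnt4hi. It measured 13.20, 13.51 and 13.05 in Wnt4hi and 11.81, 12.63 and 12.92 in Wnt4low arrays. The populations did not overlap, with 0.13 between Wnt4hi replicate 4 and Wnt4low replicate 4. The difference was 0.80 ± 0.31 (adjusted p = 0.443), and among the settings that leave out 1 array it passed only without Wnt4low replicate 4 (1.03) and was 0.48 to 0.90 in the others. It did not pass with the processed intensity (0.80).

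*Usp29*, a ubiquitin protease whose start lies in the printed *Peg3* window, could not be placed. Its probe ranged from 8.56 to 10.74 in Wnt4hi and from 7.42 to 10.24 in Wnt4low arrays, a difference of 0.79 ± 0.87 (0.13 without Wnt4hi replicate 2), and the second probe gave -0.52. *Zim1*, the maternally expressed zinc finger gene of the domain, had the opposite sign to *Peg3*, -0.66 ± 0.42 (adjusted p = 0.693), with Wnt4hi replicate 2 at 10.20 below the other 5 arrays (11.56 to 12.08). Without that array the difference was -0.18, and with the mean of probes it was -0.48 and passed.

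The *Snrpn-Ube3a* domain, the mouse counterpart of the Prader-Willi and Angelman region, held 2 members that were lower. *Peg12* (*Frat3*), of the FRAT family of GSK3-binding proteins, measured 6.79, 6.90 and 6.79 in Wnt4hi and 7.70, 7.66 and 7.71 in Wnt4low arrays, 2 groups near the floor of the array. The probe was well above background on all 3 Wnt4low arrays and on 0 Wnt4hi arrays, so the level in Wnt4hi has only a bound, set from the lowest signal well above background on each array, and *Peg12* was at least 1.28-fold lower there. The fitted difference was -0.87 ± 0.12 (adjusted p = 0.0577 by limma); as it sets signals not well above background against measured ones, its SE and p do not give the spread of the level in Wnt4hi.

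*Magel2*, a MAGE protein that regulates endosomal recycling through ubiquitin ligases, measured 9.36, 9.71 and 9.27 in Wnt4hi and 9.81, 9.99 and 10.53 in Wnt4low arrays. No Wnt4hi array reached a Wnt4low array, and the difference was -0.66 ± 0.24 (adjusted p = 0.386). It did not pass without Wnt4hi replicate 2 or 4 or Wnt4low replicate 4 (-0.62 to -0.45), nor with the authors' values (-0.56, and -0.63 without the column of Wnt4hi replicate 2). The other 4 members of the domain did not pass. *Ndn*, a second MAGE protein, differed by -0.27 ± 0.24 (-0.045 without Wnt4low replicate 4), *Ube3a*, the ubiquitin ligase, by 0.44 ± 0.35, and *Snrpn*, a protein of the spliceosome, by 0.08 ± 0.68. Wnt4hi replicate 2 was the lowest Wnt4hi array in *Snrpn*, and without it the difference was 0.81. *Mkrn3* (makorin ring finger protein) was well above background on 2 Wnt4hi arrays and 1 Wnt4low array.

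In 4 domains with 1 member each the paternally expressed gene passed as higher in Wnt4hi. *Zdbf2*, a zinc finger protein of unclear function, had the largest positive difference of the members in this fit, 1.71 ± 0.60 (adjusted p = 0.378). It measured 9.76, 11.28 and 11.56 in Wnt4hi and 8.30, 9.92 and 9.23 in Wnt4low arrays, so that Wnt4hi replicate 2 fell below Wnt4low replicate 3 and the populations overlapped. Without Wnt4hi replicate 2 the difference was 2.27 and passed, and without Wnt4hi replicate 3 or 4 or Wnt4low replicate 1 or 4 it was 1.29 to 1.76 and did not pass. *Rasgrf1*, a Ras exchange factor, measured 9.79, 8.07 and 8.50 in Wnt4hi and 7.32, 7.96 and 7.44 in Wnt4low arrays, a difference of 1.21 ± 0.46 (adjusted p = 0.428). Wnt4hi replicate 2 was the highest array here and the probe was well above background on only 1 Wnt4low array; without Wnt4hi replicate 2 the difference was 0.71 and still passed. It did not pass without Wnt4hi replicate 4 or Wnt4low replicate 1 or 4 (1.09 to 1.36). The second probe, well above background on 2 Wnt4hi arrays and 1 Wnt4low array, gave 0.53 ± 0.72, and the authors' values gave 0.77 and passed (0.87 without the column of Wnt4hi replicate 2).

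*Nap1l5*, of the nucleosome assembly protein family, lies in an intron of *Herc3*. It measured 10.69, 10.19 and 11.24 in Wnt4hi and 9.76, 9.93 and 9.87 in Wnt4low arrays, a difference of 0.86 ± 0.27 (adjusted p = 0.332). The spread lay on the Wnt4hi side, and every Wnt4hi array was above the Wnt4low arrays. *Nap1l5* lost the threshold only without Wnt4low replicate 1 (0.81) among the settings that leave out 1 array. *Impact*, which inhibits the amino acid sensor GCN2, measured 10.30, 10.48 and 10.48 in Wnt4hi and 9.61, 9.88 and 10.15 in Wnt4low arrays, a smaller difference of 0.54 ± 0.18 (adjusted p = 0.341). It passed only without Wnt4hi replicate 2 or Wnt4low replicate 4 among those settings, and was 0.40 to 0.54 in the others.

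Besides *Dlk1*, 24 members did not pass in the design used here, and their differences ran from -0.66 (*Zim1*) to 1.15 (*Nnat*), 16 of them under 0.3 in size. A p above the threshold does not show that their levels were equal, since their 95% intervals reached from 0.28 to 2.12 to either side. *Nnat*, a small membrane protein of the endoplasmic reticulum with a known part in insulin secretion, measured 12.99, 13.24 and 12.92 in Wnt4hi and 10.75, 13.02 and 11.92 in Wnt4low arrays (1.15 ± 0.54, adjusted p = 0.551). Only Wnt4low replicate 3, the array with the highest β-cell markers of its population, reached the Wnt4hi arrays, and without it *Nnat* passed (1.71), whereas without Wnt4low replicate 1 the difference was 0.58. *Blcap*, in whose intron *Nnat* lies, differed by 0.50 ± 0.33 (0.12 without Wnt4low replicate 4). *Slc38a4*, an amino acid transporter, missed the threshold with its brighter probe (0.87 ± 0.38) and passed with the other in the fit over all probes (1.12 ± 0.31). It passed in 8 of the 20 other settings.

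*Gnas*, the α subunit of the stimulatory G protein, differed little with its brightest probe (-0.09, 95% interval -0.46 to 0.29). Its 5 probes, which follow different transcripts of the locus, ranged from -0.94 to 0.77, so a single value does not describe the locus. In the *Kcnq1ot1* domain the non-coding RNA itself differed by 0.26 ± 0.23 (0.017 without Wnt4low replicate 1), *Slc22a18* (a transporter) by 0.22 ± 0.23 (0.012 without Wnt4low replicate 4) and *Ascl2* (a basic helix-loop-helix factor) by 0.10 ± 0.17, while *Phlda2*, a regulator of placental growth, was above background on 0 arrays by the software's test. *Grb10*, the adaptor that restrains insulin and IGF signalling, differed by -0.19 (-0.90 to 0.52, and 0.06 without Wnt4hi replicate 2), *Trappc9*, of a vesicle tethering complex, by 0.39 (-0.50 to 1.29, and 0.03 without Wnt4hi replicate 2), and *Airn*, the non-coding RNA that silences *Igf2r*, by -0.03 (-0.61 to 0.54).

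Of the 39 members, 22 had more than 1 probe named by a RefSeq transcript, and in 13 of these all such probes had 1 sign. The exceptions were *Usp29*, *Ppp1r9a*, *Asb4*, *Calcr*, *Grb10*, *Plagl1*, *Snrpn*, *Gnas* and *Kcnq1ot1*. Among the members that passed, only *Plagl1* was one of them. *H19* had a further probe without a RefSeq accession, which entered only the mean of probes, where *H19* differed by -1.38.

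**Figure D3:**
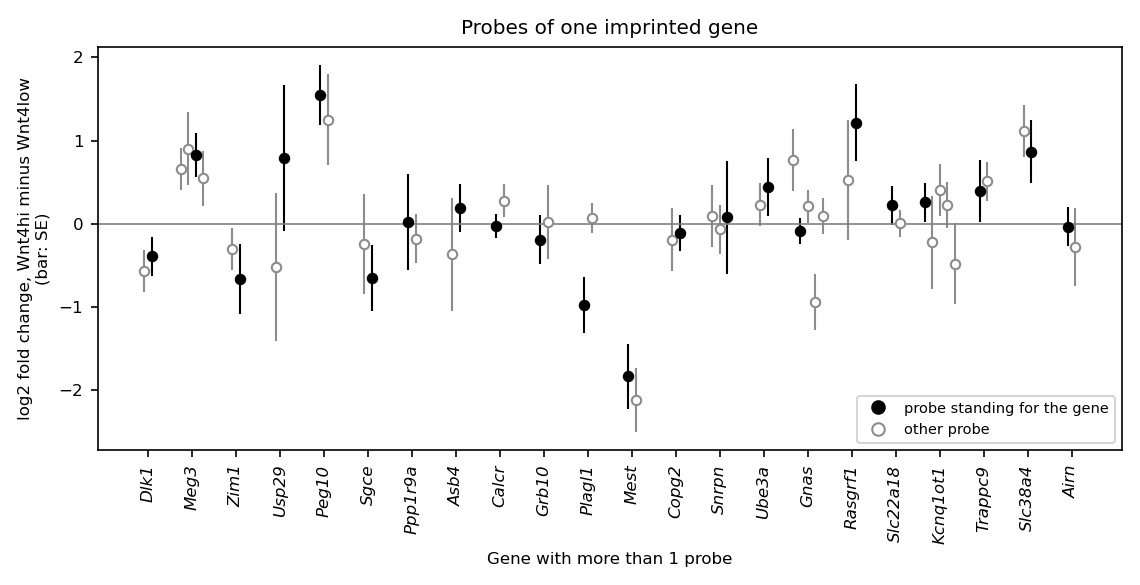
Log2 fold change (Wnt4hi minus Wnt4low) of every RefSeq probe of the 22 imprinted genes with more than 1 such probe, with its SE. Black is the brightest probe, which stands for the gene. The probes of *Meg3*, *Mest* and *Peg10* lie on 1 side of 0, those of *Plagl1*, *Usp29* and *Gnas* on both.

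The members that passed did not all rest on the same arrays. Among the 9 that were higher in Wnt4hi, Wnt4low replicate 3 was the Wnt4low array nearest to Wnt4hi in 7, and Wnt4low replicate 1, which had the lowest β-cell and α-cell markers, was the farthest in 6. Without Wnt4low replicate 1 only 1 member (*Peg10*) passed as higher and 4 as lower. Of the 45616 features 1597 then passed as higher and 2475 as lower, against 2288 and 2522 with all arrays. Among the 5 that were lower, Wnt4hi replicate 2 was the Wnt4hi array nearest to Wnt4low in 3 (*H19*, *Plagl1* and *Mest*). Without Wnt4hi replicate 2, 7 members passed as higher and 4 as lower (2311 and 2403 of all features). Without both Wnt4hi replicate 2 and Wnt4low replicate 3, 6 and 4 members passed (2476 and 2567 of all features). *Impact*, *Magel2*, *Nap1l5*, *Peg3* and *Rian* were then not among them. The endothelial and mesenchymal markers were lower in Wnt4hi, as were *H19*, *Mest*, *Plagl1*, *Magel2* and *Peg12*. Most β-cell markers and all α-cell markers were higher, as were the 9 higher members. Members were grouped by their sign here, so this match follows from the grouping. Within a population the order of the arrays was not always shared. Among Wnt4low arrays *Plagl1* was lowest in replicate 1, where the mean of the endothelial markers was highest. Of the other lists, 3 of 6 markers of Schwann and neural cells, 3 of 6 of leukocytes, 2 of 4 of erythroid cells and 1 each of 7 acinar and 6 duct markers passed as lower. Of the hormone genes of the rarer endocrine cells *Ghrl* (2.10, adjusted p = 0.0498 by limma) and *Ppy* (1.22) were higher and *Sst* (-0.56) was lower, as was *Hhex* (-1.75), a factor of δ-cells. For all these lists their part in these differences was not tested.

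**Figure D4:**
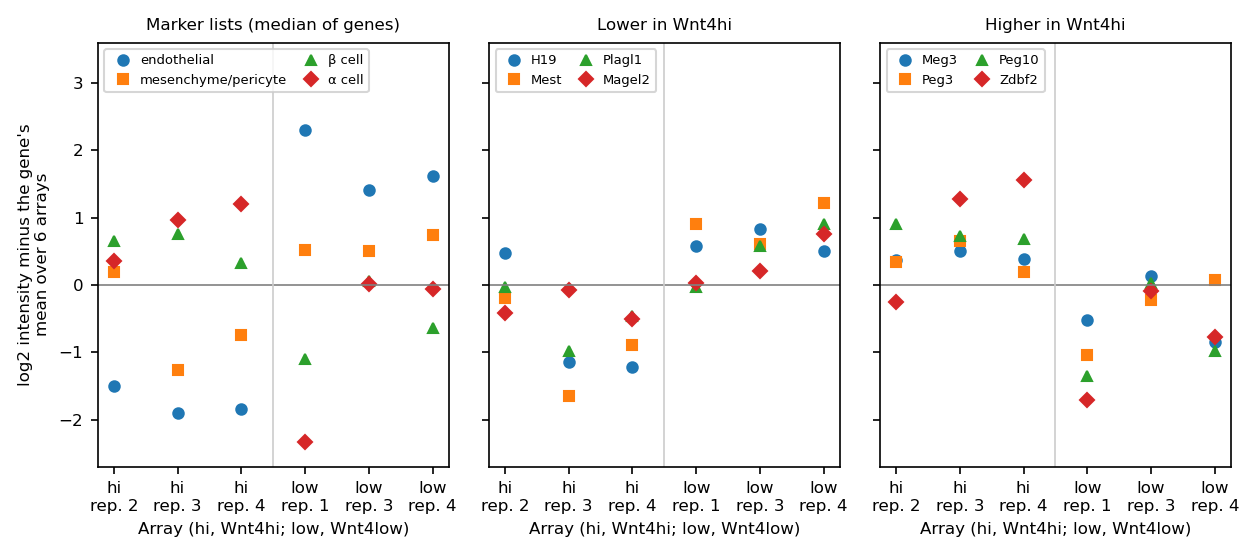
Log2 intensity on each array minus the mean of the gene over the 6 arrays: left, the median over the genes of 4 marker lists; middle and right, 4 imprinted genes that were lower and 4 that were higher in Wnt4hi. Wnt4hi replicate 2 lies near the Wnt4low arrays in the mesenchyme and pericyte markers (0.19, against -1.26 and -0.74 in the other Wnt4hi arrays) and in *H19*.

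Further imprinted genes outside the 39 and genes that keep imprints were counted in the same way. Of 41 other imprinted genes 39 were measured, 2 of them passed as higher (5.13%, where 5.02% of all features did) and 7 as lower (17.9% against 5.53%), with a median difference of 0.02. The higher genes were *Ddc* (1.33), the decarboxylase of dopamine and serotonin synthesis, and *Ins2* (0.56), an insulin gene that is also one of the β-cell markers. Of those lower the largest differences were those of *Klf14* (-2.43), a zinc finger factor that lies near *Mest*, *Cdkn1c* (-1.69), the CDK inhibitor p57 of the *Kcnq1ot1* domain, *Igf2* (-1.48), *Gab1* (-1.42), *Pon2* (-1.33) and *Dcn* (-1.18), the last also one of the mesenchyme markers. *Igf2r*, the partner of *Airn*, differed by -0.33 ± 0.29.

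Of 22 genes of imprint maintenance 8 had a positive and 14 a negative difference, with a median of -0.15. Of these 1 passed as higher (4.55%) and 2 as lower (9.09%), near the shares over all features. *Dnmt3a*, a methyltransferase for new DNA methylation, measured 13.48, 12.47 and 12.58 in Wnt4hi and 11.55, 11.88 and 12.22 in Wnt4low arrays (0.96 ± 0.32). *Ezh2*, the methyltransferase of Polycomb complex PRC2, measured 10.59, 10.28 and 10.35 against 11.05, 11.05 and 11.50 (-0.79 ± 0.18). *Zfp57*, whose motif is given above, measured 9.18, 9.24 and 8.84 against 9.64, 9.66 and 9.29 (-0.44 ± 0.18). Of these 3, 0 passed after adjustment by limma (adjusted p = 0.355, 0.173 and 0.464), and *Dnmt1*, *Uhrf1*, *Trim28*, *Zfp445* and *Ctcf* did not pass the unadjusted threshold.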

How the data were processed

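Expression in 6 samples of sorted P1 islet cells was measured on 1 single-colour SurePrint G3 Mouse v2 array each, on 1 slide. The labels give population, replicate number and pups pooled, but not whether Wnt4hi and Wnt4low samples of 1 number came from the same pups. For each array the authors deposited scanner output with the red (Cy5) intensity of every spot and its local background, not normalized; file headers name Feature Extraction 12.0.1.1, the submitters' processing notes 9.1. A second deposited table holds their own log2 values after normalization (column medians 8.91), used here as an alternative.

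Following the study's methods, limma (version 3.58.1, R 4.3.3) was run on median spot signals: normexp with offset 50, then quantile normalization between arrays. Controls and spots that the software called outliers or not uniform (50 to 141 per array) were dropped. Of 56605 probes, 35886 carry a RefSeq accession, and 32994 of these matched a gene of GRCm38.p6, used for names and sequences only. The probe with the highest mean stood for its gene. Populations were compared by lmFit and eBayes on 45616 features, with no covariates and p values adjusted by Benjamini-Hochberg; an unadjusted threshold of 0.05 was read beside it. P values measure the spread between pools of pups.

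Full values are given for members that passed this threshold or did not overlap between populations, provided that the probe was well above background in every array of the higher one. Members, lists and markers were chosen with earlier results of these data known. The calculation was tested on simulated data. Alternatives changed the background, normalization, dim and outlier spots, probe choice, variance model, the values, the replicate number as a block and the arrays included.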

Additional observations from a re-analysis of the deposited data

How the results depend on the processing

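The 15 genes that met the rule for full values kept their sign in every one of the 20 other settings in which they were measured (18 for *Peg3* and *Rian*, which were not analysed with the authors' values), and *Mest* and *Peg10* passed the unadjusted threshold in each; 21 of the 39 members kept their sign throughout. When arrays were left out in turn, or Wnt4hi replicate 2 and Wnt4low replicate 3 together (a setting chosen after seeing the data), 1 to 8 members were higher (1 without Wnt4low replicate 1) and 2 to 4 lower (2 without Wnt4low replicate 4); the median over the members ran from 0.039 to 0.21 and that of maternally expressed genes from 0.018 to 0.21. Over all 45616 features 1597 to 2476 passed as higher and 2123 to 2609 as lower in these settings. The slide was not used as a block, since there was 1. Arrays that share a number across the populations had deviations correlated at -0.03 for replicate 3 and 0.16 for replicate 4. So few pairs cannot show whether samples of 1 number were paired. Since only these numbers occur in both populations, the fixed block compared the populations within them alone. With the replicate number as a fixed replicate block 5 members were higher and 4 lower (0 adjusted): 7 of the 14 calls remained, *Impact*, *Magel2*, *Mirg* (0.60), *Nap1l5*, *Peg3* (0.50), *Rasgrf1* (0.59) and *Rian* did not pass, and *Snrpn* (1.08) and *Slc38a4* (0.82) did, with medians of 0.16 over all members and over maternally expressed genes, and *Usp29* (-0.065), *Ppp1r9a* (-0.096), *Grb10* (0.20) and *Gnas* (0.060) changed sign; with a random replicate block 1 member (*Peg12*) passed after adjustment. After adjustment 1 member also passed without background subtraction, with an offset of 16, cyclic loess, the mean of probes or trend with robust estimation (*Peg12* in each), and with the authors' values (*Mest*); 2 passed with those values without Wnt4hi replicate 2 (*Mest* and *H19*), a setting also chosen after seeing the data. The median over the members was 0.043 with cyclic loess; that of maternally expressed genes was 0.17 with the processed intensity, 0.027 with cyclic loess, 0.19 with the filter on dim probes and 0.15 with the authors' values without Wnt4hi replicate 2. The median of paternally expressed genes ran from 0.041 with the latter to 0.26 without Wnt4low replicate 1.

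Members that changed sign did not pass in the design used here, though *Snrpn* passed with the fixed block and *Sgce* without Wnt4hi replicate 4 (-1.03), and the cause was not tested. They were *Rtl1* (-0.0011), *Ppp1r9a* (-0.0028) and *Phlda2* (0.080) with the processed intensity, *Calcr* (0.0029) with median centring, *Rtl1* (-0.048), *Snrpn* (-0.012) and *Gnas* (0.037) with cyclic loess, *Ppp1r9a* (-0.076), *Asb4* (-0.087), *Calcr* (0.13) and *Gnas* (0.0093) with the mean of probes, and *Sgce* (0.048), *Ppp1r9a* (-0.037) and *Calcr* (0.11) with the authors' values, and *Dio3* (-0.056), *Sgce* (0.0085), *Calcr* (0.15), *Mkrn3* (-0.016) and *Slc22a18* (-0.0024) with those values without Wnt4hi replicate 2. With arrays left out the ranges were -0.018 to 0.073 for *Rtl1*, -0.078 to 0.31 for *Dio3*, -0.47 to 1.60 for *Usp29*, -0.44 to 0.56 for *Ppp1r9a*, -0.089 to 0.47 for *Asb4*, -0.14 to 0.029 for *Calcr*, -0.39 to 0.057 for *Grb10*, -0.31 to 0.0057 for *Copg2*, -0.35 to 0.81 for *Snrpn*, -0.012 to 0.29 for *Mkrn3*, -0.080 to 0.66 for *Ube3a*, -0.17 to 0.024 for *Gnas*, -0.026 to 0.18 for *Ascl2*, -0.058 to 0.63 for *Trappc9* and -0.25 to 0.18 for *Airn*.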
